A study of Mus musculus with 12 samples.

Results

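The genes of the liver X receptor (LXR) and oxysterol pathway were followed in bulk RNA-seq of mouse bone marrow-derived dendritic cells (BMDCs). The 9 genes Ch25h, Nr1h3, Nr1h2, Abca1, Abcg1, Apoe, Mylip, Srebf1 and Lpcat3 were taken by symbol from the 55335 genes of the deposited gene tables. All 9 passed the filter on low counts that left 14357 genes for testing, and their expected counts (read pairs per gene as estimated by RSEM) ran from 284.0 to 12689 per library. The 12 libraries formed 4 groups of 3. Every group came from bone marrow of C57BL/6 mice of CreER genotype, in which a tamoxifen-inducible Cre recombinase is driven from the ubiquitously active Rosa26 locus and Ctcf is intact, grown with the cytokine GM-CSF for 6 days. The mice of the study were 8 to 12 weeks old and of both sexes, 4-hydroxytamoxifen was added at the start of culture where Ctcf was to be deleted, and CD11c-positive cells were selected with beads before use. WT cells received neither agent. WTL cells were given lipopolysaccharide (LPS), a cell wall component of Gram-negative bacteria, at 100 ng/ml for 3 h. WT + JSH23 cells were given JSH-23, a small molecule that keeps the NF-κB subunit RelA out of the nucleus, at 100 µM for 3 h, and WTL + JSH23 cells received JSH-23 and then LPS. The sources used here do not say whether the groups without JSH-23 received its solvent, whether these groups also received 4-hydroxytamoxifen, or how many mice stand behind a library.

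LXRα (encoded by Nr1h3) and LXRβ (Nr1h2) are nuclear receptors that sit on DNA as partners of retinoid X receptors and are switched on by oxysterols, which are oxidised forms of cholesterol. Activated LXRs raise genes that move cholesterol out of the cell (Abca1, Abcg1, Apoe), limit its uptake (Mylip) and remodel fatty acids and phospholipids (Srebf1, Lpcat3). Ch25h makes 25-hydroxycholesterol, an oxysterol that myeloid cells release upon stimulation of Toll-like receptors and that also restrains the processing of SREBP transcription factors.

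Promoter sequences from RefSeq (build GRCm38.p6) were matched for 8 of the 9 genes, in 13 windows of the same length around annotated start sites. Shown here are those for the enzyme with the largest changes and for the LXR target genes whose windows held a receptor-type repeat. The capitals mark TGACGTCA, the palindrome bound by CREB and ATF factors, in Ch25h, and the reverse complement of GGTNA and GGTCA with any 5 bases between them, a spaced direct repeat of the kind that LXR and its partner bind, in Abca1 and Srebf1. Each runs 5′ to 3′ in the direction of the gene and ends at the last base before the start site.
Ch25h (chr19:34475149-34475398, minus strand): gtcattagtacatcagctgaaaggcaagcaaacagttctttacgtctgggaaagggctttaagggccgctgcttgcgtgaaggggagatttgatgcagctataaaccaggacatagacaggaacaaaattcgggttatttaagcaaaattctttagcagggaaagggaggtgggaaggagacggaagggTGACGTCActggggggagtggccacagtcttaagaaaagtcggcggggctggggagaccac
Abca1 (chr4:53159896-53160145, minus strand): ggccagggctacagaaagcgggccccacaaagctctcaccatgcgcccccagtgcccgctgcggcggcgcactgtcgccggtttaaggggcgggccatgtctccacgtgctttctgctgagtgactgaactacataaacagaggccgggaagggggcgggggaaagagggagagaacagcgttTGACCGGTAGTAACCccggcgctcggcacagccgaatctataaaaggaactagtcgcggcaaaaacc
Srebf1 (chr11:60210472-60210721, minus strand): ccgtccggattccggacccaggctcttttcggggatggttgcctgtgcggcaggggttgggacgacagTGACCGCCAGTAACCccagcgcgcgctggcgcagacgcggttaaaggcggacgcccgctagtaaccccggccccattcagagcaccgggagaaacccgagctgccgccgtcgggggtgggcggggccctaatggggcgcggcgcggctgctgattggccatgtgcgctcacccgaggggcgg

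The repeat lay 67 to 53 bases upstream of the Abca1 start (chr4:53159948-53159962) and 182 to 168 bases upstream of a start of Srebf1 (chr11:60210639-60210653). On either strand it was present in 68 of all 32851 windows (0.207%), and the longer form that starts with AGGTNA in 0.0883%, with no match in the 13 windows. TGACGTCA lay 61 to 54 bases upstream of Ch25h (chr19:34475202-34475209) and was present in 1.79% of windows. TATAAA was found in 13.6% of all windows and in those of Abca1, Apoe, Mylip and Ch25h, and CACGTG in 7.15% and in that of Abca1. A form of the NF-κB motif, GGGA and TTCC with any 2 bases between, occurred in 1.47% of windows, the interferon response motif of a pair of GAAA with any 2 bases between in 3.44%, the AP-1 motif TGANTCA in 7.81% and the sterol response motif TCACNCCAC in 1.24%, and none of these had a match in the 13 windows. The shorter repeat, TGACGTCA and TATAAA were added to the search after the windows had been read, and a match describes letters only. The study names Ch25h a direct RelA target in LPS-treated WT cells. It reports very little RelA at the promoter and several RelA-bound distal enhancers that contact that promoter. Such distal sites lie outside the windows searched here.

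Total expected counts per library ranged from 24664724 to 34837847 with overlapping ranges between groups. The LPS label was checked with Tnf, which rose from 109.5 ± 7.40 CPM (counts relative to the library size after TMM scaling) in WT to 2043 ± 78.0 in WTL, and Il6, which rose from 30.2 ± 2.38 to 1845 ± 105 (mean ± SD, n = 3). After JSH-23, LPS still raised Tnf, from 31.3 ± 2.34 to 1235 ± 40.5 CPM. Il6 then rose from 46.7 ± 6.82 to 1230.2 ± 77.3 CPM. The log2 change of Tnf with LPS was 4.221 without JSH-23 and 5.304 after it, and that of Il6 was 5.933 and 4.719. Under LPS, JSH-23 gave a log2 change of -0.73 for Tnf and -0.59 for Il6. How far JSH-23 blocked NF-κB in these libraries was not tested. Of 8 dendritic cell markers, Cd74, H2-Ab1, Itgax and Ccr7 were abundant and Cd209a stayed under 1 TPM (a level per transcript length on a fixed total) in each group mean. Itgax encodes CD11c, on which the cells were selected. The summed level of the 8 was 18997 to 19643 TPM in WT, 17936 to 18689 in WTL, 18117 to 18512 in WT + JSH23 and 17340 to 18530 in WTL + JSH23. The summed level of 8 macrophage markers was 1479 to 1534 TPM in WT and 1431 to 1473 in WT + JSH23, but 1976 to 2007 in WTL and 1943 to 2083 in WTL + JSH23. Cd14 moved with LPS (298.9 and 1254 TPM in WT and WTL), whereas Csf1r (494 and 232) and Cx3cr1 (20.8 and 3.50) moved the other way. The 8 neutrophil markers summed to between 171 and 226 TPM in every library, and B cell, T cell, mast cell, erythroid and stromal lists to at most 3.55 TPM. The part of these markers in the results was not tested, and in bulk samples fewer cells of a type and less RNA per cell cannot be told apart.

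WTL + JSH23 replicate 3 stood apart from the other libraries of its group. Its counts differed from theirs by 7.89 and 8.75 chi-square units per degree of freedom, against 2.31 to 4.39 for every other pair of replicates. Where a change of the 9 genes gained or lost its call without it, that value is given beside the result.

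In the comparison of WTL with WT, 6 of the 9 genes passed at an adjusted p under 0.05 (7 without WTL + JSH23 replicate 3), 4 of them higher and 2 lower, where 65.7% of all genes tested passed, 31% higher and 34.7% lower. Ch25h was the only one that passed with a change over 2-fold, and 16.4% of all genes did so. After JSH-23, 6 of the 9 again passed for LPS, 3 in each direction (5 without replicate 3), beside 54.5% of all genes (27.4% higher and 27.1% lower). JSH-23 under LPS (WTL + JSH23 against WTL) changed 6 genes, 2 higher and 4 lower (7 in all without replicate 3), beside 48.7% of all genes (24.5% higher and 24.2% lower), and JSH-23 without LPS changed 5, 1 higher and 4 lower (6 in all without replicate 3), beside 41% of all genes (18.8% higher and 22.1% lower). In each of these 3 comparisons, too, Ch25h was the only one of the 9 over 2-fold, beside 10.3%, 7% and 5.37% of all genes, in that order. For the interaction, in which the LPS change of untreated cells is subtracted from that of JSH-23-treated cells, 1 gene passed (3 without replicate 3), beside 18% of all genes (9.54% positive and 8.44% negative), and it was negative. No result about the 9 genes as a group is read from them. On the TPM scale, where no further scaling between libraries was applied, the median of all genes moved from -0.05 to -0.26 for LPS, and the split of the 9 genes from 4 higher and 2 lower to 1 higher and 5 lower. Over all genes, 47.2% of the calls for LPS were higher on counts and 19.6% on the TPM scale. The split for LPS after JSH-23 became 1 higher and 4 lower, and that for JSH-23 under LPS 3 higher and 2 lower. With only the 2 groups compared, that for JSH-23 without LPS was 4 higher and 4 lower.

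**Figure D1:**
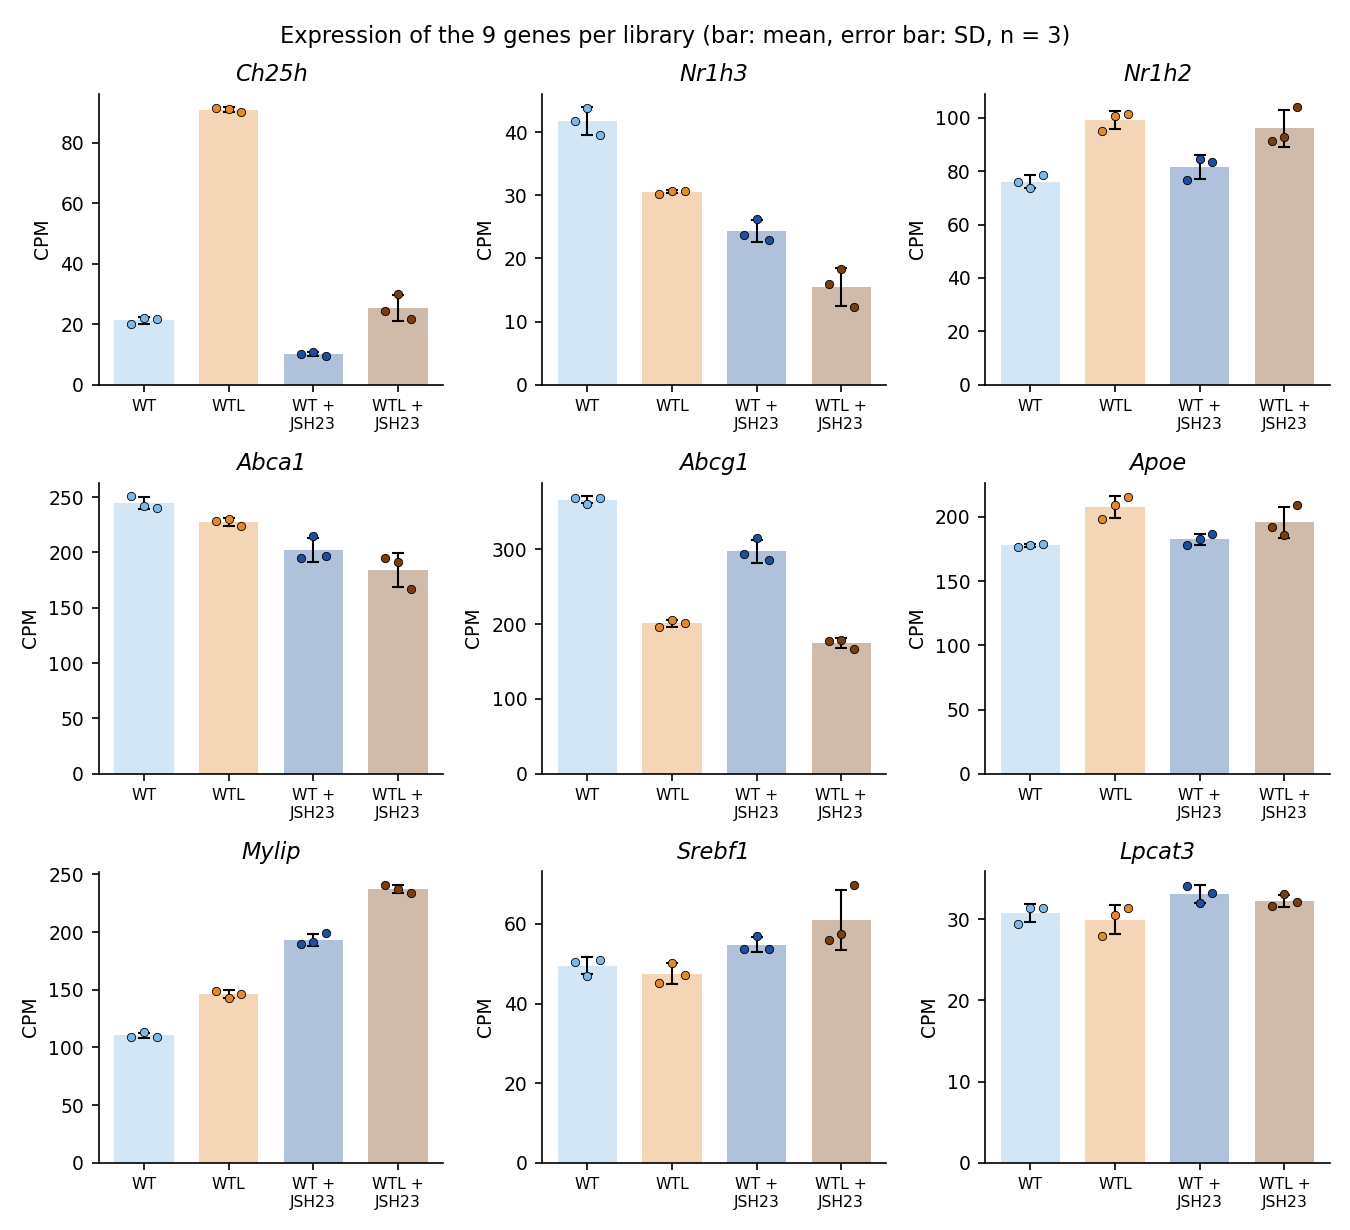
Expression of the 9 genes in CPM in WT, WTL, WT + JSH23 and WTL + JSH23, with 1 point per library, bars at the mean and error bars of 1 SD (n = 3). Ch25h stands near 91 CPM in WTL and below 31 in every other library, Nr1h3 descends from WT to WTL + JSH23, and Mylip ascends in the same order.

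Ch25h (cholesterol 25-hydroxylase, ENSMUSG00000050370.5, chr19:34473778-34475164, minus strand, mm10), whose promoter is printed above, had the largest changes of the 9 genes. Its level was 20.1, 21.9 and 21.8 CPM in the WT libraries and 91.7, 91.1 and 90.2 CPM in WTL. After JSH-23 it was 10.1, 10.7 and 9.67 CPM without LPS and 24.3, 30.1 and 21.7 CPM with LPS. The groups did not overlap, except that the lowest WTL + JSH23 library lay within the range of WT, with means of 25.4 and 21.3 CPM. LPS raised Ch25h by 2.10 on the log2 scale (SE 0.07, adjusted p = 2.8e-16) without JSH-23 and by 1.32 after it (SE 0.09, adjusted p = 5.13e-11). JSH-23 lowered it 2.09-fold without LPS (log2 change -1.06, SE 0.09, adjusted p = 2.82e-09) and 3.58-fold under LPS (-1.84, SE 0.07, adjusted p = 1.44e-14). The LPS rise was smaller after JSH-23 (interaction -0.78, SE 0.12, adjusted p = 8.6e-05), and Ch25h passed for the interaction in each of 20 alternative fits, with values from -0.91 to -0.66.

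Per length, Ch25h moved through the order of the 9 genes. It ranked 8 of 9 in WT (30.3 ± 1.36 TPM), where its libraries overlapped those of Srebf1 and of Lpcat3, and 2 of 9 in WTL (102 ± 1.65 TPM), behind Apoe. In WT + JSH23 it was the lowest of the 9 at 14.4 ± 0.96 TPM. In WTL + JSH23 it ranked 5 at 31.1 ± 5.31 TPM, overlapping Srebf1, Abca1 and Lpcat3. Gm26902, a noncoding gene on the opposite strand that overlaps Ch25h, had 59.2 to 143 expected counts per library, or 4.03% to 4.70% of the Ch25h count in WTL and 27.1% to 35.4% in WT + JSH23. Whether the counting used strand is not given in the sources used here, so reads of this pair could not be told apart if it did not, and 8 libraries had a fractional count for Ch25h.

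The 2 receptor genes moved in different directions. Nr1h3 (LXRα, ENSMUSG00000002108.10, chr2:91184061-91202834, minus strand) was measured at 41.8, 43.9 and 39.5 CPM in WT, 30.3, 30.6 and 30.7 in WTL, 23.7, 26.2 and 22.9 in WT + JSH23, and 15.9, 18.3 and 12.3 in WTL + JSH23. In CPM the 4 groups did not overlap and the gene was lower with each agent and lowest with both. In TPM, WTL (25.24 to 26.7) and WT + JSH23 (23.19 to 28.66) overlapped, below WT and above WTL + JSH23 (10.78 to 16.72). LPS lowered it with a log2 change of -0.45 (SE 0.08, adjusted p = 3.21e-05) without JSH-23 and -0.64 (SE 0.09, adjusted p = 4.03e-06) after it. JSH-23 lowered it with a log2 change of -0.78 (SE 0.08, adjusted p = 4.64e-08) without LPS and -0.97 (SE 0.09, adjusted p = 9.66e-09) under LPS. The last is a 1.96-fold fall, which was -1.10, over 2-fold, without WTL + JSH23 replicate 2. Without replicate 3 of that group, the lowest library, the changes were -0.84 for JSH-23 under LPS and -0.51 for LPS after JSH-23. The interaction was -0.19 (95% interval -0.46 to 0.09, adjusted p = 0.32), and ran from -0.32 (adjusted p = 0.0516) without WTL + JSH23 replicate 2 to -0.05 (adjusted p = 0.748) without replicate 3. Nr1h3 passed in all 4 comparisons of groups under every alternative fit.

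Nr1h2 (LXRβ, ENSMUSG00000060601.13, chr7:44549616-44553951, minus strand) was measured at 75.9, 73.7 and 78.5 CPM in WT and at 95.2, 100.7 and 101 in WTL. It stood at 76.6, 84.5 and 83.6 CPM in WT + JSH23 and at 91.4, 92.7 and 104 in WTL + JSH23. The libraries with LPS all lay above those without. LPS raised it by 0.38 (SE 0.05, adjusted p = 1.21e-06) without JSH-23 and by 0.23 (SE 0.05, adjusted p = 5.78e-04) after it. On the TPM scale these log2 changes were 0.03 and 0.04 and did not pass, although relative to the median of all genes on that scale the first was 0.29. JSH-23 left no change that passed, either under LPS (-0.05, 95% interval -0.16 to 0.07, adjusted p = 0.489) or without it (0.10, interval -0.02 to 0.22, adjusted p = 0.126). The latter passed without WT + JSH23 replicate 1 (0.15, adjusted p = 0.0434) and with only the 2 groups compared (0.12, adjusted p = 0.0312), and the interaction (-0.15, adjusted p = 0.175) passed without WTL + JSH23 replicate 3 (-0.21, adjusted p = 0.0236).

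The ratio of the receptors within a library does not depend on how libraries are scaled to each other. Nr1h2 stood at 1.96 ± 0.14 times the TPM of Nr1h3 in WT, 3.39 ± 0.19 times in WTL, 3.63 ± 0.31 times in WT + JSH23 and 6.95 ± 2.05 times in WTL + JSH23 (mean ± SD, n = 3). The lowest WTL + JSH23 library was at 5.59 and the highest, replicate 3, at 9.31. LXRβ was thus the more abundant receptor transcript in each library, WTL and WT + JSH23 overlapped, and the libraries given both agents lay above all others.

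**Figure D2:**
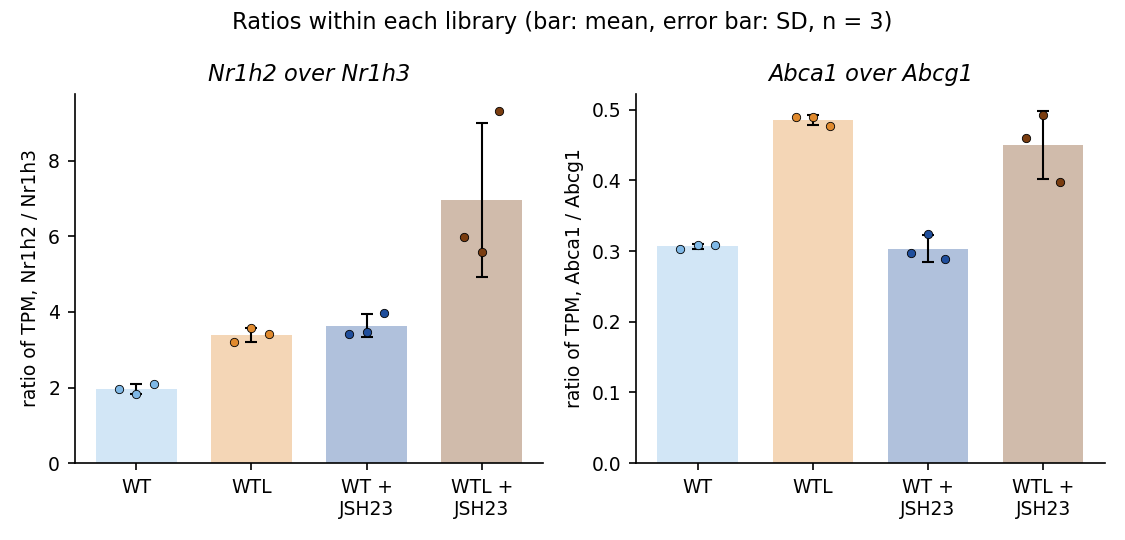
Ratios of TPM within each library for Nr1h2 over Nr1h3 (left) and Abca1 over Abcg1 (right), with bars at the mean and error bars of 1 SD (n = 3). The receptor ratio is lowest in WT (1.82 to 2.10) and highest in WTL + JSH23 (5.59 to 9.31), and the transporter ratio is higher in the groups with LPS.

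The cholesterol transporters responded to LPS to different extents. Abcg1 (ENSMUSG00000024030.7, chr17:31057675-31117988, plus strand), which passes cholesterol to high-density lipoprotein, was measured at 369, 361 and 369 CPM in WT and at 196, 206 and 201 in WTL. In WT + JSH23 it was at 293, 315 and 285 CPM and in WTL + JSH23 at 177, 179 and 167. The groups did not overlap, and the LPS-treated libraries lay far below the others. LPS lowered it 1.82-fold without JSH-23 (log2 change -0.87, SE 0.04, adjusted p = 6.41e-14) and 1.71-fold after it (-0.77, SE 0.04, adjusted p = 9.48e-13), with no interaction that passed (0.09, 95% interval -0.04 to 0.23, adjusted p = 0.293). JSH-23 lowered it by smaller amounts, -0.30 (SE 0.04, adjusted p = 2.95e-06) without LPS and -0.20 (SE 0.04, adjusted p = 3.26e-04) under LPS. The latter was -0.05 and did not pass on the TPM scale. The abundance-weighted transcript length of Abcg1 was 4665 to 4997 bases in WT, 4398 to 4451 in WTL, 4446 to 4919 in WT + JSH23 and 4101 to 4520 in WTL + JSH23.

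Abca1 (ENSMUSG00000015243.4, chr4:53030787-53159895, minus strand), which loads cholesterol and phospholipid onto apolipoproteins and whose promoter held the repeat, changed less with LPS. It was measured at 251, 242 and 240.4 CPM in WT, 229, 230.4 and 224 in WTL, 195, 215 and 197 in WT + JSH23, and 195, 191 and 167 in WTL + JSH23. LPS gave a log2 change of -0.10 (95% interval -0.22 to 0.01, adjusted p = 0.073) that did not pass, although it passed in 8 of 21 alternative fits, among them that without WTL + JSH23 replicate 3 (-0.10, adjusted p = 0.0173) and that with upper quartile scaling (-0.18, adjusted p = 0.00291). It was -0.40 on the TPM scale (adjusted p = 6.25e-04), or -0.14 relative to the median of all genes there. After JSH-23 the LPS change was -0.13 (SE 0.05, adjusted p = 0.0291). That call was lost without WTL + JSH23 replicate 3 (-0.07, adjusted p = 0.192), without WT + JSH23 replicate 2 (-0.09, adjusted p = 0.176) and in a fit to only the 2 groups (adjusted p = 0.079). JSH-23 lowered Abca1 both without LPS (-0.27, SE 0.05, adjusted p = 1.13e-04) and under LPS (-0.30, SE 0.05, adjusted p = 3.19e-05). The latter was -0.16 and did not pass on the TPM scale. The interaction was -0.03 (interval -0.19 to 0.13, adjusted p = 0.82), and its sign turned without replicate 3 (0.04) or without WT + JSH23 replicate 2 (0.02). Abca1 stood at 0.307 ± 0.003 times the TPM of Abcg1 in WT and 0.303 ± 0.019 in WT + JSH23, against 0.485 ± 0.007 in WTL and 0.450 ± 0.048 in WTL + JSH23.

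Apoe (apolipoprotein E, an acceptor of exported cholesterol, ENSMUSG00000002985.16, chr7:19696109-19699188, minus strand) had the highest TPM of the 9 genes in every group, from 374 to 403 TPM in the group means. It was measured at 177, 178 and 179 CPM in WT and at 199, 209 and 215 in WTL, without overlap. After JSH-23 it was at 178, 183 and 187 CPM without LPS and at 192, 186 and 209 with LPS, and these ranges overlapped. LPS raised it by 0.22 in the count-based fit (SE 0.04, adjusted p = 1.1e-04), but on the TPM scale the change was -0.08, or 0.18 above the median of all genes on that scale. After JSH-23 the LPS change was 0.10 (95% interval 0.0008 to 0.20, adjusted p = 0.0552), which passed without WTL + JSH23 replicate 2 (0.14, adjusted p = 0.0171) and was 0.05 (adjusted p = 0.293) without replicate 3. JSH-23 gave 0.04 (interval -0.06 to 0.14, adjusted p = 0.531) without LPS and -0.09 (interval -0.18 to 0.01, adjusted p = 0.109) under LPS. Without WTL + JSH23 replicate 3, the change under LPS (-0.13, adjusted p = 0.0079) and the interaction (-0.17, adjusted p = 0.0246) passed, whereas with it the interaction was -0.12 (adjusted p = 0.179).

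Mylip (ENSMUSG00000038175.10, chr13:45389742-45412022, plus strand), which encodes the ubiquitin ligase IDOL that limits cholesterol uptake, was the only one of the 9 genes that passed as higher with JSH-23 both with and without LPS. Its level was 109, 113 and 109 CPM in WT, 149, 143 and 146 in WTL, 189.6, 191 and 199 in WT + JSH23, and 240.5, 237 and 234 in WTL + JSH23. In CPM the 4 groups did not overlap, and the order was the reverse of that of Nr1h3. In TPM, WT (62.82 to 64.39) and WTL (63.99 to 68.55) overlapped. JSH-23 raised Mylip 1.75-fold without LPS (log2 change 0.81, SE 0.04, adjusted p = 2.1e-13) and 1.62-fold under LPS (0.70, SE 0.04, adjusted p = 1.25e-12). LPS raised it by 0.40 (SE 0.04, adjusted p = 4.3e-09) without JSH-23 and by 0.29 (SE 0.04, adjusted p = 5.17e-07) after it. The LPS changes were 0.07 and 0.09 on the TPM scale and did not pass, the first being 0.33 above the median of all genes there. The interaction was -0.11 (95% interval -0.23 to 0.01, adjusted p = 0.154).

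Srebf1 (ENSMUSG00000020538.15, chr11:60199089-60222581, minus strand), which encodes the SREBP-1 transcription factors of fatty acid synthesis, was measured at 50.5, 47.0 and 50.8 CPM in WT and 45.1, 50.3 and 47.2 in WTL. It stood at 53.8, 57.0 and 53.6 CPM in WT + JSH23 and at 55.9, 57.5 and 69.7 in WTL + JSH23, where replicate 3 was the highest. JSH-23 raised it under LPS by 0.36 (SE 0.07, adjusted p = 1.44e-04), in each alternative fit. The other changes did not pass, with 0.15 (95% interval -0.002 to 0.30, adjusted p = 0.0767) for JSH-23 without LPS, -0.06 (interval -0.21 to 0.10, adjusted p = 0.48) for LPS, 0.15 (interval 0.0008 to 0.30, adjusted p = 0.056) for LPS after JSH-23 and 0.21 (interval -0.009 to 0.42, adjusted p = 0.137) for the interaction. The LPS change after JSH-23 passed without WTL + JSH23 replicate 1 (0.21, adjusted p = 0.0153), replicate 2 (0.19, adjusted p = 0.0287) or WT + JSH23 replicate 2 (0.18, adjusted p = 0.0496), but was 0.05 (adjusted p = 0.466) without WTL + JSH23 replicate 3. Without that library the interaction was 0.10 (adjusted p = 0.35) and the change with JSH-23 under LPS 0.25, which still passed. The change with JSH-23 alone passed without WTL + JSH23 replicate 1 (0.16, adjusted p = 0.0447) or replicate 3 (0.15, adjusted p = 0.0124), and with only the 2 groups compared (0.17, adjusted p = 0.00474). On the TPM scale LPS gave -0.41 (adjusted p = 0.00761), or -0.15 relative to the median there. Srebf1 overlaps the protein-coding gene Rai1 on the opposite strand.

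Lpcat3 (ENSMUSG00000004270.13, chr6:124663027-124704418, plus strand), the enzyme that places polyunsaturated fatty acids in phospholipids, passed in none of the 5 comparisons. It ranged from 29.4 to 31.4 CPM in WT, 27.97 to 31.4 in WTL, 32.0 to 34.1 in WT + JSH23 and 31.6 to 33.1 in WTL + JSH23. Its log2 change with LPS was -0.04 without JSH-23 (95% interval -0.16 to 0.08, adjusted p = 0.545) and -0.04 after it (interval -0.16 to 0.08, adjusted p = 0.567), and with JSH-23 it was 0.11 both without LPS (interval -0.01 to 0.23, adjusted p = 0.105) and under LPS (interval -0.02 to 0.23, adjusted p = 0.109). The interaction was -0.00021 (interval -0.17 to 0.17, adjusted p = 0.999), and all 5 intervals lay within a change of 2-fold. The sign of the LPS change turned without WTL replicate 4 (0.009), and the change with JSH-23 without LPS passed with only the 2 groups compared (0.13, adjusted p = 0.0428). On the TPM scale the 4 changes between groups passed, with -0.32 for LPS (adjusted p = 0.00175), which is -0.06 relative to the median there, -0.37 for LPS after JSH-23, 0.25 for JSH-23 and 0.20 for JSH-23 under LPS. Lpcat3 overlaps Emg1 on the opposite strand and had fractional counts in all 12 libraries.

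**Figure D3:**
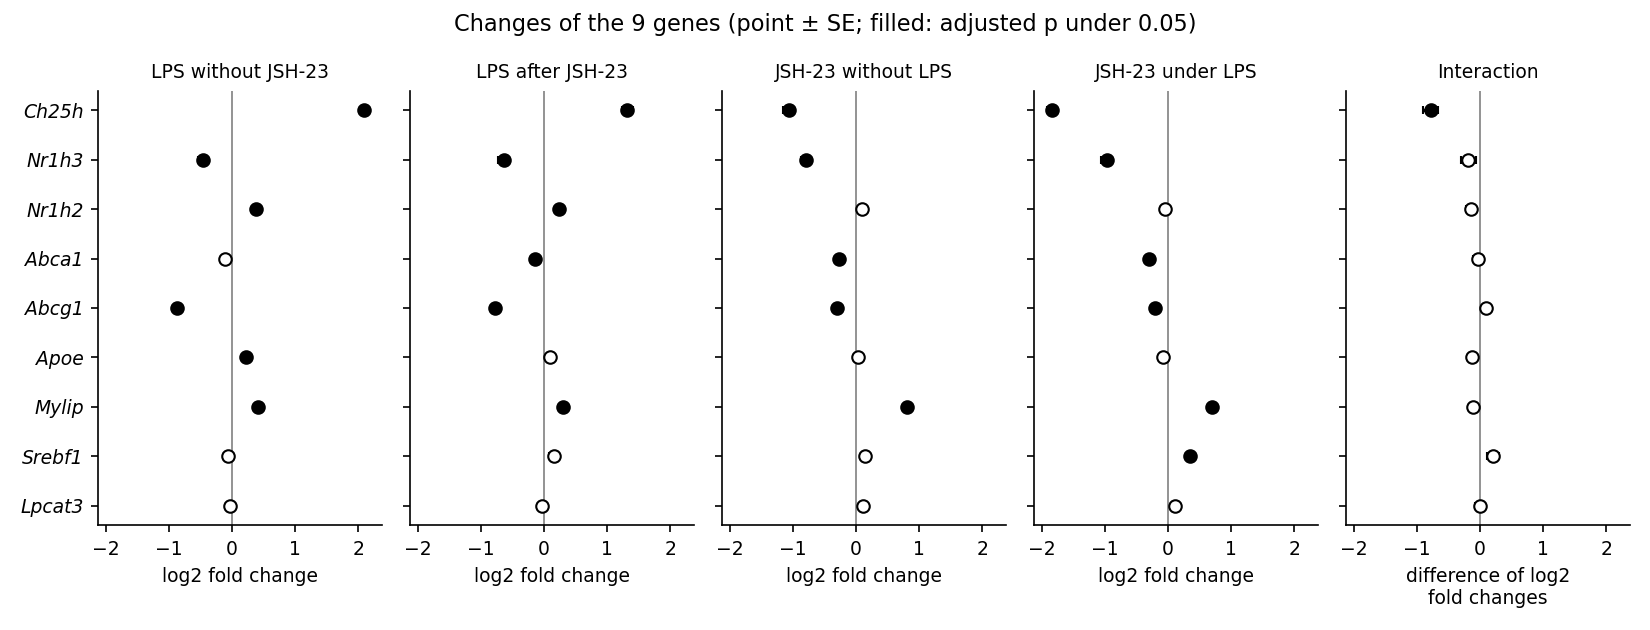
Log2 fold changes of the 9 genes in the 4 comparisons of groups and for the interaction, as points with error bars of 1 SE, filled where the adjusted p was under 0.05. Ch25h is the farthest from 0 in each panel and the only filled point for the interaction, and Nr1h3 lies left of 0 in all panels.

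The 9 genes were also compared by Pearson's r of log2 CPM over the 12 libraries, a description in which the points share group means and scaling. Nr1h3 ran most closely with Abca1 (r = 0.963) and opposite to Mylip (r = -0.946), and Nr1h2 ran with Apoe (r = 0.938) and opposite to Abcg1 (r = -0.90). Among 7689 genes with at least 10 CPM on average, those most like Ch25h were Il1rap, an interleukin-1 receptor subunit (r = 0.996), and Fcgr2b, the inhibitory Fc receptor (r = 0.995), which stood at 141 CPM in WT, 329.9 in WTL, 102 in WT + JSH23 and 168 in WTL + JSH23. Nr1h3 was closest to Tomm70a (r = 0.994) and the lectin gene Clec4a3 (r = 0.993), Abcg1 to the adhesion receptor Adgre5 (r = 0.996) and the kinase Taok3 (r = 0.994), and Abca1 to the sodium-calcium exchanger Slc8a1 (r = 0.979) and Smchd1 (r = 0.973). The genes most like Mylip were Ednrb, the endothelin B receptor (r = 0.994), at 3.16 CPM in WT and 92.1 in WTL + JSH23, and Ubxn4 (r = 0.993). Nr1h2 was closest to Mark4 (r = 0.984) and Dda1 (r = 0.976), Apoe to Akt1s1 (r = 0.971) and Eif3b (r = 0.96), Srebf1 to Ppp5c (r = 0.951) and Lonp1 (r = 0.95), and Lpcat3 to Rce1 (r = 0.906) and Atg12 (r = 0.883).

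The wider pathway was described with 69 further genes in 7 lists, of which 59 were tested. These lists were chosen with earlier results of these data known, so their counts beside the shares of all genes are a description only. LPS without JSH-23 changed 11 of the 59 as higher and 32 as lower, where 31% and 34.7% of all genes passed, with a median log2 change of -0.22 beside -0.05 for all genes. After JSH-23 the counts were 13 and 26, where 27.4% and 27.1% of all genes passed, with a median of -0.07 beside -0.02. On the TPM scale, 6 were higher and 45 lower with LPS, and 4 and 36 after JSH-23. JSH-23 under LPS changed 23 as higher and 13 as lower (24 and 4 on the TPM scale), where 24.5% and 24.2% of all genes passed, with a median of 0.05 beside 0.02. JSH-23 without LPS changed 17 and 18, where 18.8% and 22.1% of all genes passed, with a median of -0.03 beside -0.01.

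**Figure D4:**
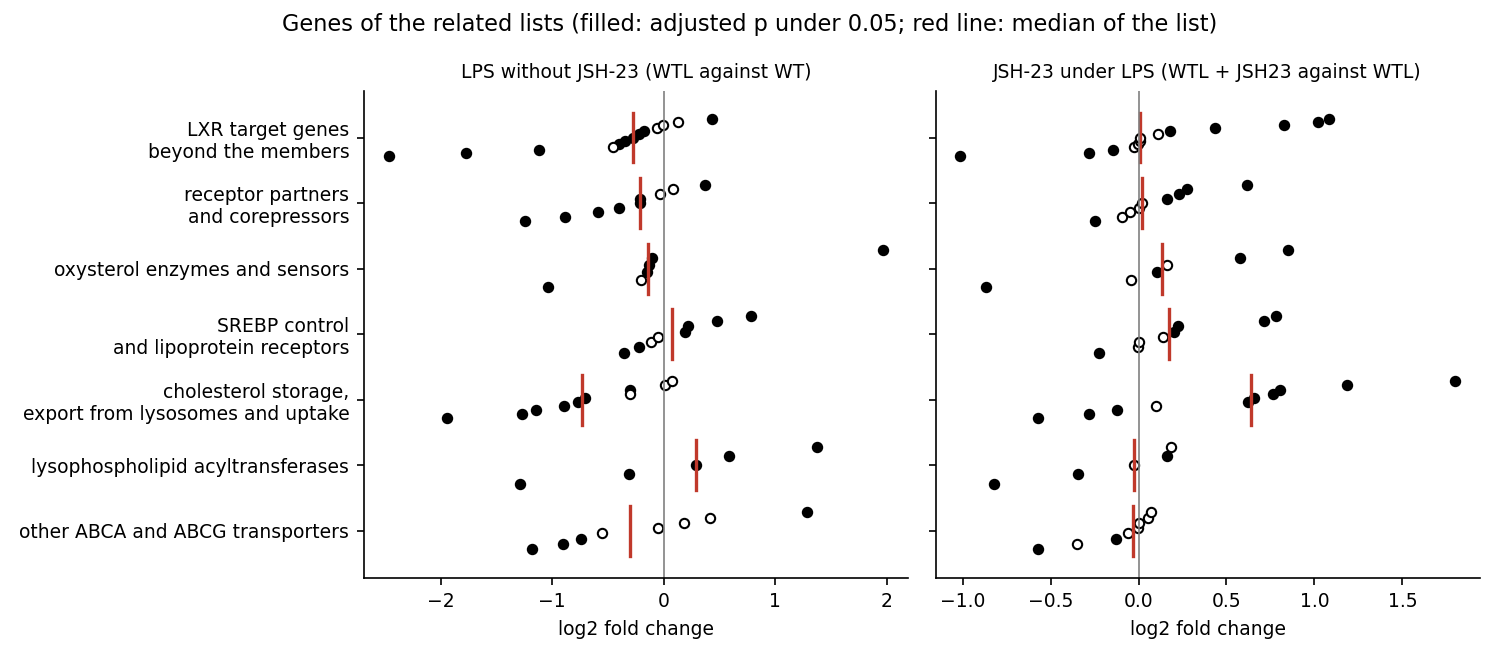
Log2 fold changes of the tested genes of the 7 related lists for LPS without JSH-23 (left) and for JSH-23 under LPS (right), with 1 point per gene, filled where the adjusted p was under 0.05, and a red line at the median of each list. The genes of cholesterol storage, export from lysosomes and uptake lie mostly left of 0 with LPS (median -0.73) and mostly right of 0 with JSH-23 under LPS (median 0.64).

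Genes of cholesterol storage, export from lysosomes and uptake were mostly lower with LPS, for which 31% of all genes passed as higher and 34.7% as lower. Of 10 tested, 7 passed as lower and none as higher, with a median log2 change of -0.73, and the 7 included Nceh1, which frees cholesterol from its esters (82.6 ± 1.51 CPM in WT and 21.5 ± 0.80 in WTL), Soat1, which makes those esters (185 ± 7.76 and 84.0 ± 3.31), the lysosomal lipase Lipa (1022 ± 53.2 and 602 ± 26.1), the lysosomal exporter Npc1 (130.4 ± 2.19 and 80.2 ± 5.15) and the uptake receptor Lrp1 (281 ± 4.73 and 117 ± 5.73). JSH-23 raised 6 and lowered 3 of the 10 under LPS, where 24.5% and 24.2% of all genes passed. It raised 6 and lowered 3 without LPS, where 18.8% and 22.1% of all genes passed. Npc1 rose to 182 ± 18.2 CPM in WTL + JSH23 (log2 change 1.18, adjusted p = 3.3e-13) and Lipa to 1053 ± 23.2 (0.81, adjusted p = 9.54e-13), whereas the scavenger receptor Msr1 fell from 374 ± 6.45 to 252 ± 31.3 (-0.57, adjusted p = 6.86e-08).

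Among LXR target genes beyond the 9, LPS lowered 8 of 13 tested and raised 1, where 34.7% and 31% of all genes passed in these directions. The desaturase Scd2 fell 5.53-fold, from 110.4 ± 2.66 CPM in WT to 19.99 ± 0.69 in WTL, and Fads1, another desaturase, from 38.9 ± 1.10 to 11.4 ± 0.48. Under LPS, JSH-23 raised 5 and lowered 3 of the 13, where 24.5% and 24.2% of all genes passed. Scd2 was 2.11-fold higher at 42.2 ± 2.97 CPM and Fads1 was higher at 23.0 ± 0.64. The lipoprotein lipase Lpl was lower, at 879 ± 91.1 CPM against 1775 ± 17.2 in WTL. Of 9 receptor partners and corepressors, 1 was higher and 6 lower with LPS, beside 31% and 34.7% of all genes. Those of the list that passed included Rxra, the LXR partner (26.7 ± 0.74 CPM in WT, 17.8 ± 1.27 in WTL), and Tbl1xr1, a subunit of corepressor complexes (61.3 ± 3.01 and 25.9 ± 1.10). JSH-23 raised Rxra to 39.0 ± 1.55 CPM without LPS and to 27.3 ± 1.64 under LPS.

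Of 6 oxysterol enzymes and sensors tested, 1 was higher and 4 were lower with LPS, beside 31% and 34.7% of all genes. The number of lower calls depended on the fit. By the DESeq2 Wald test, and in edgeR with DESeq2 size factors, 1 was higher and 1 lower, and on the TPM scale 1 and 5. Gpr183, the receptor for the oxysterol that is made from the product of Ch25h, rose with LPS from 20.4 ± 0.38 to 79.97 ± 4.74 CPM (log2 change 1.97, adjusted p = 3.04e-17) and after JSH-23 from 12.2 ± 1.34 to 43.8 ± 1.68 (1.84, adjusted p = 1.43e-15). Its interaction was -0.13 (adjusted p = 0.386), and JSH-23 lowered it without LPS (-0.74, adjusted p = 2.37e-08) and under LPS (-0.87, adjusted p = 3.58e-11), the directions also found for Ch25h. Cyp27a1, which makes 27-hydroxycholesterol, fell from 14.1 ± 0.64 to 6.95 ± 1.05 CPM with LPS, and Hsd3b7, which breaks oxysterols down, rose with JSH-23 under LPS from 32.3 ± 1.58 to 58.2 ± 5.06 CPM.

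Of 8 genes of SREBP control and lipoprotein receptors, LPS raised 4 and lowered 2 (2 and 5 on the TPM scale), beside 31% and 34.7% of all genes on counts. Srebf2, the regulator of cholesterol synthesis, rose from 218 ± 4.81 to 303 ± 9.67 CPM, Insig2, which holds SREBPs in the endoplasmic reticulum, fell from 15.3 ± 0.74 to 11.9 ± 0.97, and the receptor Lrp8 rose from 29.7 ± 2.34 to 51.2 ± 1.52. JSH-23 raised Lrp8 to 65.3 ± 3.35 CPM without LPS. Of 5 lysophospholipid acyltransferases, the family of Lpcat3, 3 were higher and 2 lower with LPS, beside the same shares of all genes. Of the lower genes, 1 fell over 2-fold. On the TPM scale 2 were higher and 2 lower, and the median log2 change of the list was -0.04 in place of 0.29. The genes that were higher on counts had log2 changes of 1.38 for Lpcat4, 0.58 for Lpcat1 and 0.29 for Lpcat2, which fell with JSH-23 under LPS (-0.82). Of 8 other ABCA and ABCG transporters, 1 was higher and 3 were lower with LPS, among them Abca2 (-0.90) and Abca3 (-0.74), again beside 31% and 34.7% of all genes. JSH-23 without LPS lowered 6 and raised 1, with -0.21 for Abca7, where 22.1% and 18.8% of all genes passed. The DESeq2 Wald test and the TPM scale each gave 4 lower and 0 higher. With a mean of at least 1 CPM required, 6 of these transporters were tested, and 4 were lower and 1 higher.

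For the interaction, 15 of the 59 genes passed, 14 positive and 1 negative, where 18% of all genes passed (9.54% positive and 8.44% negative), with a median of 0.11 beside 0.03 for all genes. On the TPM scale 12 were positive and none negative, where the median of all genes was 0.11. By the DESeq2 Wald test 13 were positive and 3 negative, where that median was 0.002, and edgeR with DESeq2 size factors gave 13 and 4. Positive examples were Scd2, with log2 changes of -2.47 for LPS without JSH-23 and -1.84 after it, Nceh1 (-1.94 and -1.45), Lipa (-0.76 and -0.30) and Cyp27a1 (-1.03 and -0.38). The gene that was negative in the main fit was Lrp8, which rose by 0.78 without and 0.36 after JSH-23. These comparisons share the WT and WTL libraries. Abcg1 and Nr1h3, the members of the 9 that LPS lowered without JSH-23, were lowered after JSH-23 as well, and neither passed for the interaction.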

How the data were processed

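RNA-seq libraries of the 4 groups were compared, 3 per group, grouped by their titles. The authors trimmed reads, aligned them to mm10 with STAR (2.6.0c, per the submitters' processing notes) and estimated expression per gene with RSEM on a GENCODE annotation of unstated release. The labels (rRNA depletion) and the study's methods (stranded polyA kit) differ on RNA selection. The expected counts deposited by the authors are unnormalized, with shared read pairs divided between genes, so that 7.75% to 8.52% of genes per library had fractional values. The TPM values deposited by the authors were scaled per length and library. Deposited FPKM values were not used. Symbols and positions came from GENCODE M21 on the same build (55154 of 55335 identifiers matched).

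Expected counts were rounded and genes filtered with filterByExpr, which kept 99.94% to 99.95% of counts. edgeR 4.0.16 (R 4.3.3) fitted TMM-scaled quasi-likelihood models with one mean per group and 8 residual degrees of freedom, and Benjamini-Hochberg adjustment covered all genes tested, for 5 comparisons. SEs are the change divided by the square root of F, and intervals use the SE and the residual degrees of freedom. The F-test itself used more degrees of freedom, shared across genes, so the intervals are wider than that test implies. Fits were checked on simulated counts. Alternatives were other scalings, filters and libraries left out, DESeq2 1.42.0, limma 3.58.1 on log2(TPM + 1) and log2(TPM + 0.1), which is the TPM scale of the text with the pseudocount of 1, and a replicate block. The study names 3 biological replicates, but the labels do not say that libraries came from separate cultures or mice, so p-values measure the spread between libraries. Named genes were the 9 members, up to 2 genes per list and comparison with the largest change among those passing with at least 10 CPM, the 2 most correlated genes per member, and Tnf and Il6. Some listed genes are counted but not reported by name here. Members and lists were chosen with earlier results of these data known.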

Additional observations from a re-analysis of the deposited data

Results flagged for a closer look

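JSH-23 altered the LPS response of Ch25h by the interaction term of the fit over all genes. The difference of the log2 changes was -0.777 (SE 0.12, edgeR adjusted p = 8.6e-05), with a rise of 4.28-fold without JSH-23 and of 2.50-fold after it.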

How the results depend on the processing

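Of 918 recomputed log2 changes of the 9 genes, 832 kept their direction and their side of the threshold. Of the other 86, 40 were on the TPM scale and 23 in fits without 1 library. Both TPM fits gave 2 of the 9 genes over 2-fold for WTL against WT in place of 1, and the fit without WTL + JSH23 replicate 2 gave 2 for WTL + JSH23 against WTL. With only the 2 groups compared, 8 passed for WT + JSH23 against WT in place of 5. Over the fits without 1 library, between 1 and 3 passed for the interaction, the 3 without WTL + JSH23 replicate 3, and 1 or 2 were over 2-fold for WTL + JSH23 against WTL.

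Signs turned with log2(TPM + 1) and log2(TPM + 0.1), in that order, for Apoe with LPS (-0.0788 and -0.079), Apoe with LPS after JSH-23 (-0.109 and -0.109), Srebf1 with LPS after JSH-23 (-0.161 and -0.165), Nr1h2 with JSH-23 under LPS (0.104 and 0.105), Apoe with JSH-23 under LPS (0.00167 and 0.00168), and for the interactions of Nr1h2 (0.00438 and 0.00442), Abca1 (0.0962 and 0.0973) and Mylip (0.0164 and 0.0161). The Lpcat3 interaction, near 0, turned with no filter (0.00572), a mean of at least 1 CPM (0.00757) and the replicate block (0.00028). Without 1 library each, the Lpcat3 change with LPS ran from -0.0704 to 0.0093, and the interactions of Abca1 from -0.0804 to 0.0362 and of Lpcat3 from -0.0475 to 0.0321. The cause was not tested.

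Numbers are shared by WT with WTL and by the JSH-23 groups. Over all genes tested, same-numbered libraries deviated together with r of 0.014 to 0.061, and others with -0.056 to 0.035. WT + JSH23 replicate 1 was closest to another number. The numbers were not taken as pairs in the main fit. Since these deviations also hold counting noise of each gene, small r values cannot decide whether libraries were paired. Over all genes, the block gave 2968 calls for the interaction in place of 2582. With the block, 7, 8 and 1 of the 9 genes passed for LPS, LPS after JSH-23 and the interaction, in place of 6, 6 and 1. The lowest expected count of the 9 genes in any library was 284.0, and the part of depth in their calls was not tested. For all genes, upper quartile scaling moved the share of calls that were higher after JSH-23 with LPS from 50.3% to 37.7%, and TPM to 24.7%. The share for JSH-23 under LPS went from 50.3% to 69.3% on the TPM scale, and positive interactions made up 53.1% of those called on counts by edgeR, 41.1% by DESeq2 and 81.5% on TPM.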
